A study of Homo sapiens with 6 samples.

Results

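The 37 genes described here make, spend, break down and recycle glutathione, or supply the NADPH that keeps it reduced. They were chosen by gene name from a table of 48162 genes, and each name matched 1 row. They fall into 5 steps: synthesis and cystine import (5 genes), breakdown and amino acid recovery (9), peroxidases (6), transferases (12), and NADPH supply with disulfide exchange (5). RNA was sequenced from Ago2 precipitates of HEK293 cells, an established human embryonic kidney line. All cells received Flag-tagged Ago2, the protein that holds the small guide RNA in the silencing complex. In 3 libraries it was co-transfected with a microRNA-219 mimic and in the other 3 with a negative control mimic, and each group had 1 library from each of 3 dates (22 August, 5 September and 18 September). The cells kept their own Ago2 and microRNAs, and what was read is the RNA that came down with the tagged protein. A level therefore depends on the amount of a transcript in the cells and on its share bound, and fewer copies per cell and less binding cannot be told apart.

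Glutathione is a tripeptide of glutamate, cysteine and glycine, and the main thiol of animal cells. Glutamate-cysteine ligase joins the first pair of amino acids in the step that limits its rate, and glutathione synthetase adds glycine. Peroxidases and transferases spend it on peroxides and on reactive compounds, and glutathione reductase restores the oxidised form with electrons from NADPH. The kidney is known for an active cycle in which gamma-glutamyl transferase breaks glutathione down outside the cell and its amino acids are taken up again. The study's title places glutathione downstream of ALDH1L2, an NADPH-making folate enzyme, in a pathway set off by loss of microRNA-219a-2.

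The mature strands of the microRNA-219a genes are shown because one of them is the guide the mimic would give to Ago2. The labels do not say which strand it carries. Capitals mark the seed, bases 2 to 8, which pairs with target transcripts, and sequences are from RefSeq on GRCh38.p14.
hsa-miR-219a-5p: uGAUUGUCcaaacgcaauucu
hsa-miR-219a-2-3p: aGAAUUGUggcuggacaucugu
hsa-miR-219a-1-3p: aGAGUUGAgucuggacgucccg
The 5p strand is the same from both genes, MIR219A1 on chromosome 6 and MIR219A2 on chromosome 9, and the 3 seeds differ from each other. Sites for these seeds in the 37 transcripts were not analysed here.

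Total counts were 20379336 to 31490366 in mimic libraries, against 20233819 to 34408699 in control libraries, so counting error was small for all but the scarcest members. AGO2 took 12.6 to 16.7% of counts in mimic libraries, against 10.6 to 18.0% in control libraries. All 6 markers fixed for the HEK293 line (NEFL, NEFM, INA, VIM, PAX2 and LIN28B) were detected in every library. Some libraries also held RNA that this line is not known to make. The 11 intestinal epithelial markers summed to 0.483, 6.45 and 15.9 CPM (counts scaled to library size, TMM-normalized) in mimic libraries, against 23.6, 1.18 and 17.5 CPM in control libraries, in date order, and the 5 red blood cell markers to at most 0.231 CPM everywhere but in the control library of 5 September, which had 699.6 CPM. Of that sum HBB gave 689.6 CPM and HBA1 9.94 CPM. HBA2 had 1 count in that library, and HBD and ALAS2 had 0. The 5 plasma cell markers reached at most 10.2 CPM in mimic libraries, against 24.7 CPM in control libraries, with IGKC at 0. The 4 proximal tubule markers, by contrast, had similar sums in all 6 libraries, mostly from LRP2. They summed to 9.98 to 11.6 CPM in mimic libraries, against 8.46 to 12.1 CPM in control libraries, with UMOD at 0. Mitochondrial genes took 13.2% of counts in the mimic library of 22 August, 6.25 and 7.27% in the other mimic libraries and 5.66 to 8.39% in control libraries.

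Nearly all glutathione transcripts stood slightly lower in precipitates from mimic-treated cells, and none passed the test. Of the 37 genes, 30 were tested after a filter on low counts and 7 were too scarce. By edgeR's quasi-likelihood test 0 of the 30 were called higher and 0 lower at a Benjamini-Hochberg adjusted p under 0.05, beside 0% of all 16233 genes tested in either direction. The smallest adjusted p of a member was 0.999. The log2 fold change (mimic over control) was below 0 for 26 of the 30, beside 49.7% of all genes, and its median was −0.16, beside 0.0015 over all genes. Because the members were picked with earlier results of these data known, this count is a description of the list and carries no test. The median was −0.0815 without both libraries of 22 August and −0.0829 without the control library of 18 September. With AGO2 and mitochondrial genes left out of the fit it was −0.16. Markers of other cell types differed between the same libraries. All 11 intestinal markers were detected in at least 1 library, and their sum was 0.483 to 15.9 CPM in mimic libraries, against 1.18 to 23.6 CPM in control libraries. The sum of the 5 plasma cell markers was 0 to 10.2 CPM in mimic libraries, against 0 to 24.7 CPM in control libraries, with IGKC at 0 in all 6. Their part in the members' levels was not tested. DESeq2 also called 0 members higher, beside 0.0123% of all genes, and 0 lower, beside 0.0185%. At an unadjusted p under 0.05, edgeR picked out 1 member, CHAC1, beside 3.01% of all genes in either direction. That made 1 lower beside 1.26% and 0 higher beside 1.74%. With the date as a block edgeR picked out 3, all lower (CHAC1, GSTP1 and GPX1; smallest adjusted p of a member 0.824), beside 5.75% in either direction, 2.73% lower and 3.02% higher. DESeq2 without the block picked out CHAC1 alone, beside 2.67% in either direction, 1.23% lower and 1.44% higher.

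Large changes lay outside the intervals of most members. For 29 of the 30 the 95% CI of the fold change stayed inside a 2-fold change either way, beside 84.4% of all genes, and for 23 it stayed inside a 1.5-fold change, beside 55.6% of all genes. ANPEP was the exception to the first count. The p-values measure spread between these libraries, which may be technical, as no label says whether the dates were separate cultures.

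**Figure D1:**
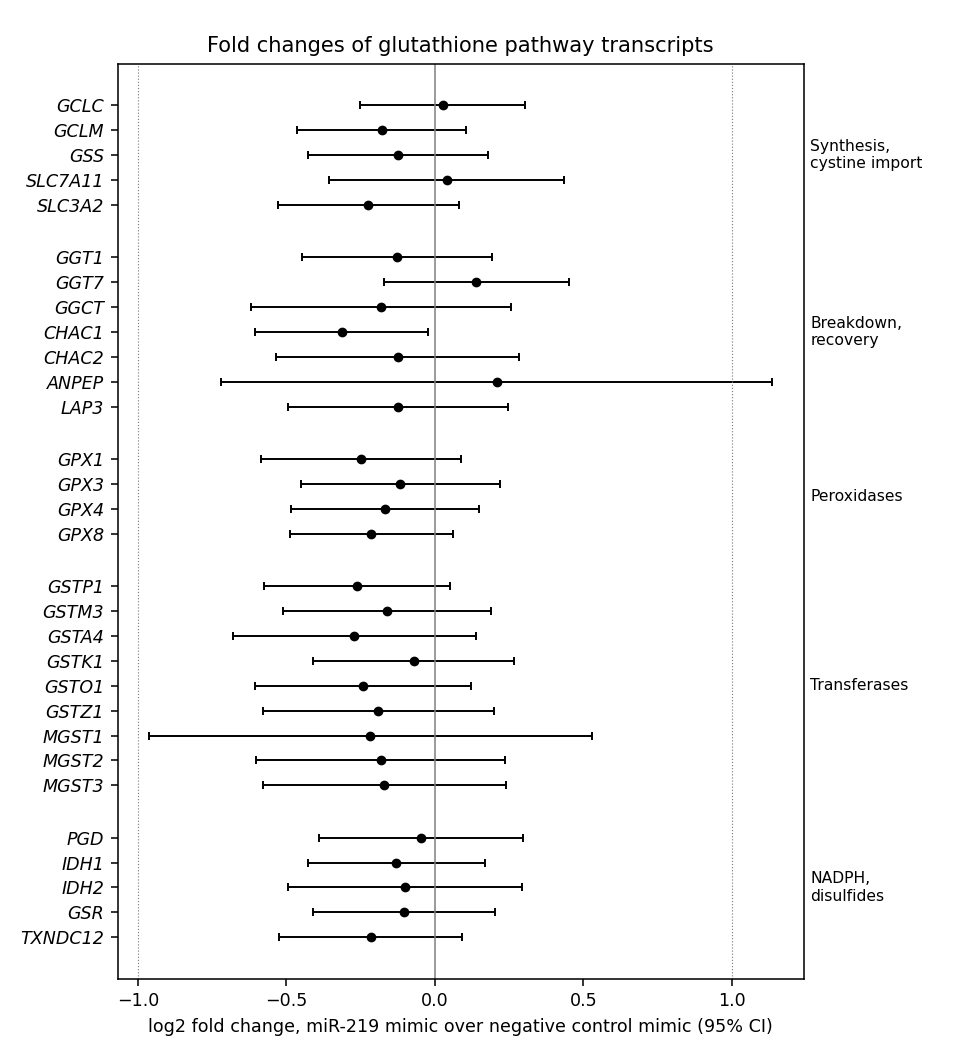
Log2 fold change (x axis, mimic over control) with its 95% CI for the 30 tested members, grouped by step, with dotted lines at a 2-fold change either way. Points of 26 members lie left of 0, the interval of CHAC1 alone leaves out 0, and that of ANPEP alone crosses a dotted line.

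Groups of libraries did not overlap for 5 members. CHAC1, SLC3A2, GPX8 and GCLM were lower in every mimic library than in any control library, 4 of 30 beside 3.84% of all genes. GGT7 was higher in every mimic library, 1 of 30 beside 4.22%. With the dates ignored, a complete separation of 3 from 3 has an exact two-sided permutation p of 0.1, the smallest that 3 libraries against 3 can give. Permutation within dates was not run.

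Synthesis and cystine import supply the tripeptide and its scarcest amino acid, cysteine. Of the 5 members 3 were below 0 and 2 above, the median log2 fold change was −0.12, and 0 were called. The median was −0.0425 without the control library of 18 September and −0.1963 without that of 5 September. SLC3A2, the heavy chain shared by several amino acid transporters (ENSG00000168003, chr11:62623518-62656352 of hg19), was the most abundant member per length, at 147 CPM per kilobase in mimic libraries, against 172 in control libraries. It had 369, 343 and 347 CPM in mimic libraries, against 449, 419 and 369.9 CPM in control libraries, in date order. The control library of 18 September lay close to the mimic libraries and the other controls well above them. Its mean was 353 ± 13.7 CPM in mimic libraries, against 412.5 ± 39.8 CPM in control libraries (SD, n = 3 each). On the log2 scale the fold change was −0.22 (SE 0.14, 95% CI −0.53 to 0.080; edgeR adjusted p = 0.999).

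GCLM encodes the modifier subunit of glutamate-cysteine ligase and GCLC its catalytic subunit, so both serve the rate-limiting step. GCLM had 36.5, 43.0 and 40.8 CPM in mimic libraries, against 47.9, 44.2 and 44.2 CPM in control libraries (log2 fold change −0.18, SE 0.13; edgeR adjusted p = 0.999). On 5 September the libraries nearly met, with 43.0 CPM for the mimic and 44.2 CPM for the control. GCLC had 80.2, 90.9 and 81.7 CPM in mimic libraries, against 86.0, 80.7 and 81.7 CPM in control libraries. Its libraries interleaved and its log2 fold change was 0.03 (95% CI −0.25 to 0.30).

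SLC7A11, the light chain that partners with SLC3A2 to import cystine in exchange for glutamate, differed more between dates than between mimics. It had 33.7, 51.1 and 38.8 CPM in mimic libraries, against 33.1, 47.6 and 39.5 CPM in control libraries, a log2 fold change of 0.04 (95% CI −0.36 to 0.44). Both libraries of 5 September were the highest of their group, but a test between dates did not call the gene (edgeR adjusted p = 0.300). GSS, glutathione synthetase, had 34.4 to 39.0 CPM in mimic libraries, against 35.3 to 45.1 CPM in control libraries (log2 fold change −0.12).

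**Figure D2:**
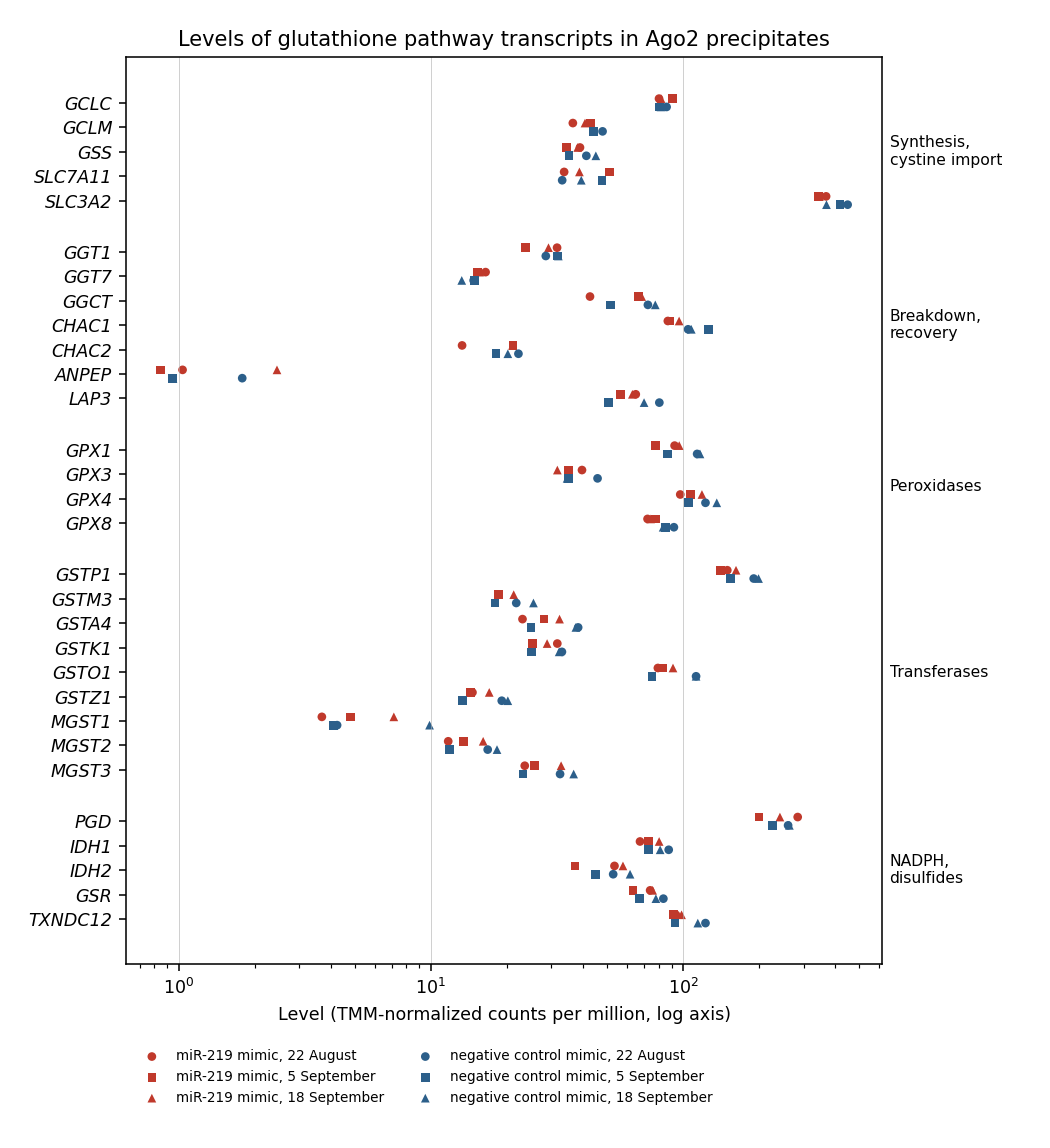
Level of each tested member (x axis, TMM-normalized CPM on a log axis) in the 6 libraries, with the mimic row drawn above the control row for each gene and one marker shape per date. SLC3A2 (343 to 369 CPM in mimic libraries, 369.9 to 449 in control libraries), PGD and GSTP1 have the highest CPM, and ANPEP (0.846 to 2.45 CPM in mimic libraries, 0.946 to 1.79 in control libraries) the scarcest tested member.

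Breakdown enzymes differed in direction. Of 9 members 7 were tested, with 5 below 0 and 2 above, a median log2 fold change of −0.12 and 0 calls. The median changed sign without the mimic library of 22 August (0.0089) and without both libraries of that date (0.0669). CHAC1, a cytosolic enzyme that splits glutathione and is induced in amino acid and endoplasmic reticulum stress (ENSG00000128965, chr15:41245160-41248710), had the lowest fold change of all 30 members. It had 87.0, 88.8 and 96.4 CPM in mimic libraries, against 105, 126 and 108 CPM in control libraries, in date order. The highest mimic library, of 18 September, lay below the lowest control library, of 22 August. Means were 90.7 ± 4.999 CPM in mimic libraries, against 113 ± 11.5 CPM in control libraries (SD, n = 3 each), or 0.804 times the control level. The log2 fold change was −0.31 (SE 0.13, 95% CI −0.61 to −0.022; edgeR unadjusted p = 0.0372, adjusted p = 0.999). With the date as a block the unadjusted p was 0.0252 and the adjusted p 0.824. Without both libraries of 5 September, the date with the widest gap, the log2 fold change was −0.21, and the edgeR unadjusted p stayed under 0.05 in 2 of the 9 fits that left out a library or a date. It was also lost with all libraries kept when low counts were not filtered or the trend with gene length was removed.

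CHAC2, a related enzyme with slow, constitutive activity, had overlapping groups. It had 13.3, 21.2 and 21.1 CPM in mimic libraries, against 22.2, 18.1 and 20.2 CPM in control libraries (log2 fold change −0.12, 95% CI −0.53 to 0.28). The mimic library of 22 August stood alone at the low end and the other 5 lay together. GGCT, gamma-glutamylcyclotransferase, which acts on the products of gamma-glutamyl transfer, had the widest spread of date ratios after ANPEP (−0.76, 0.36 and −0.18). Its levels were 42.7, 66.5 and 68.5 CPM in mimic libraries, against 72.5, 51.7 and 77.5 CPM in control libraries (log2 fold change −0.18, 95% CI −0.62 to 0.26). On 22 August and 18 September the mimic library was the lower of the pair, on 5 September the higher, and without both libraries of 22 August the log2 fold change was 0.0669.

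Gamma-glutamyl transferases at the cell surface start the extracellular route. GGT1 had 31.6, 23.8 and 29.3 CPM in mimic libraries, against 28.5, 31.8 and 32.0 CPM in control libraries (log2 fold change −0.13). It lies within near-identical copies on chromosome 22 and its model overlaps SNRPD3 on the same strand over 26230 bases, so its counts are uncertain. GGT7, a family member of poorly known activity, had 16.5, 15.3 and 15.6 CPM in mimic libraries, against 14.8, 14.9 and 13.2 CPM in control libraries. The groups did not overlap, the log2 fold change was 0.14 (95% CI −0.17 to 0.45; edgeR adjusted p = 0.999), and the gene overlaps ACSS2 on the opposite strand over 715 bases. GGT5 was scarce, with 0, 1 and 0 counts in mimic libraries, against 1, 0 and 1 in control libraries.

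Peptidases that finish the breakdown had little in common. LAP3, a cytosolic aminopeptidase, had 56.5 to 64.9 CPM in mimic libraries, against 50.6 to 80.5 CPM in control libraries (log2 fold change −0.12). ANPEP, a surface aminopeptidase abundant on intestinal and kidney brush borders, had 30, 24 and 53 counts in mimic libraries, against 45, 32 and 20 in control libraries. Its log2 fold change was 0.21 (95% CI −0.72 to 1.14), and the mimic library of 18 September was the highest. Its level was 1.04, 0.846 and 2.45 CPM in mimic libraries, against 1.79, 0.946 and 0.950 CPM in control libraries. Intestinal markers summed to 15.9 CPM in the mimic library of 18 September, against 17.5 CPM in the control library of that date, and their part in the level of ANPEP was not tested. OPLAH, which turns 5-oxoproline back into glutamate, had 3, 0 and 0 counts in mimic libraries, against 0, 0 and 0 in control libraries. The table annotates its row as a processed transcript.

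**Figure D3:**
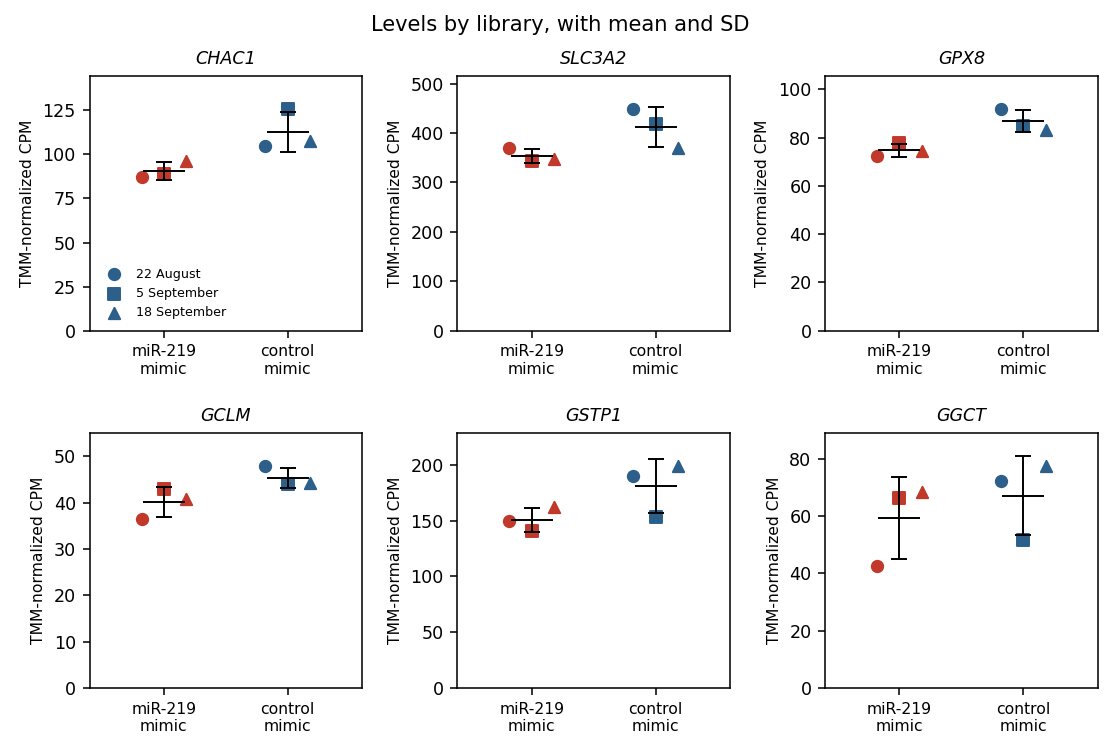
Levels (y axis, TMM-normalized CPM from 0) of 6 members in each library, with mimic libraries at the left and control libraries at the right, marker shapes for dates, and the mean with its SD over 3 libraries. For CHAC1, SLC3A2, GPX8 and GCLM all mimic points lie below all control points, GSTP1 overlaps through the control library of 5 September (154 CPM), and GGCT overlaps widely.

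All 4 tested peroxidases were below 0, with a median log2 fold change of −0.19 and 0 calls. GPX1, GPX2, GPX3 and GPX4 carry selenocysteine at the active site, whereas GPX7 and GPX8 use cysteine. GPX8, a membrane peroxidase of the endoplasmic reticulum (ENSG00000164294, chr5:54455946-54462899), had 72.2, 77.7 and 74.3 CPM in mimic libraries, against 91.9, 84.9 and 83.3 CPM in control libraries. The groups did not overlap and both were tight, at 74.8 ± 2.77 CPM in mimic libraries, against 86.7 ± 4.58 CPM in control libraries (SD, n = 3 each; log2 fold change −0.21, SE 0.13; edgeR adjusted p = 0.999). The gene overlaps CDC20B on the opposite strand, which had 23 counts in all against 12842 for GPX8.

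GPX1, the main cytosolic peroxidase, had 92.5, 77.8 and 96.5 CPM in mimic libraries, against 114, 86.6 and 117 CPM in control libraries. The mimic library was lower on each date, but both libraries of 5 September lay below the rest of their group, so the groups overlapped (log2 fold change −0.25, SE 0.15; edgeR adjusted p = 0.999, and with the date as a block unadjusted p = 0.0438 and adjusted p = 0.824). The control library of 5 September held 699.6 CPM of red blood cell markers, of which HBB gave 689.6 CPM. HBA2 had 1 count there, and HBD and ALAS2 had 0, so most of these markers were near absent. The part of that RNA in its GPX1 level was not tested. GPX4, which reduces lipid peroxides within membranes, had 97.4, 107 and 119 CPM in mimic libraries, against 123, 105 and 136 CPM in control libraries (log2 fold change −0.17, 95% CI −0.49 to 0.15). It was the peroxidase with the highest level per length, at 92.9 CPM per kilobase in mimic libraries, against 104.5 in control libraries.

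GPX3, the secreted form that plasma receives mostly from the kidney, had 31.7 to 39.7 CPM in mimic libraries, against 34.7 to 45.8 CPM in control libraries (log2 fold change −0.12). GPX2, the form typical of intestinal epithelium, was not tested, with 6, 7 and 9 counts in mimic libraries, against 9, 5 and 10 in control libraries. Its lowest libraries, the control of 5 September at 0.148 CPM and the mimic of 22 August at 0.207 CPM, were also the lowest in intestinal markers, whose part in its level was not tested. GPX7 had 0, 2 and 0 counts in mimic libraries, against 0 in each control library.

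Transferases couple glutathione to reactive compounds, and all 9 that were tested lay below 0 (median log2 fold change −0.19, 0 calls). The median was −0.0564 without the control library of 18 September and −0.3544 without that of 5 September. GSTP1, the abundant cytosolic pi-class enzyme (ENSG00000084207, chr11:67351066-67354131), had 150, 141 and 162 CPM in mimic libraries, against 190, 154 and 199 CPM in control libraries. The mimic library was lower on each date, and the control of 5 September overlapped the mimic range. Means were 151 ± 10.6 CPM in mimic libraries, against 181 ± 24.0 CPM in control libraries (SD, n = 3 each; log2 fold change −0.26, SE 0.14, 95% CI −0.58 to 0.050; edgeR adjusted p = 0.999). With the date as a block the edgeR unadjusted p was 0.0396 and the adjusted p 0.824.

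GSTO1, the omega-class enzyme that also reduces dehydroascorbate, had 79.4, 83.2 and 91.1 CPM in mimic libraries, against 113, 75.3 and 113 CPM in control libraries (log2 fold change −0.24). GSTA4, which detoxifies the lipid aldehyde 4-hydroxynonenal, had 23.1, 28.1 and 32.4 CPM in mimic libraries, against 38.3, 24.9 and 37.6 CPM in control libraries (log2 fold change −0.27). In both genes the control library of 5 September was the lowest control and lay below its mimic partner. GSTA4 had a log2 fold change of −0.0430 without both libraries of 22 August.

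GSTZ1, which also isomerises an intermediate of tyrosine breakdown, had 14.6, 14.4 and 17.03 CPM in mimic libraries, against 19.1, 13.3 and 20.2 CPM in control libraries (log2 fold change −0.19). GSTM3, a mu-class enzyme, had 18.5, 18.5 and 21.3 CPM in mimic libraries, against 21.8, 18.0 and 25.5 CPM in control libraries (log2 fold change −0.16). In both genes the control library of 5 September was the lowest of all 6. The peroxisomal and mitochondrial GSTK1 had the smallest shift of the step, at −0.07.

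Membrane-bound transferases MGST2 and MGST3 had log2 fold changes of −0.18 and −0.17. Both were below 0 on 22 August and 18 September and above 0 on 5 September. Without the control library of 18 September they were −0.0564 and −0.0248, without both libraries of 22 August −0.0188 and −0.0294, and without the control library of 5 September −0.3479 and −0.3375. MGST1, their relative in the endoplasmic reticulum and outer mitochondrial membrane, had 107, 136 and 154 counts in mimic libraries, against 107, 139 and 208 in control libraries (log2 fold change −0.22, 95% CI −0.96 to 0.53). The remaining mu-class genes were scarce. GSTM2 had 12, 7 and 5 counts in mimic libraries, against 6, 7 and 7 in control libraries, and GSTM4 had 3, 5 and 3 in mimic libraries, against 6, 1 and 5 in control libraries. GSTM1, a gene that many people lack, had 0 counts in all 6 libraries, which allows up to 0.104 to 0.139 CPM in mimic libraries, against 0.0887 to 0.142 CPM in control libraries by counting error alone. Mu-class genes resemble each other and GSTM1 and GSTM2 overlap on the same strand over 21226 bases, so reads could be split or left uncounted among them.

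Of the enzymes of NADPH supply and disulfide exchange 5 of 5 lay below 0, with a median log2 fold change of −0.10 and 0 calls. Leaving out the mimic library of 5 September gave a median of −0.0267, and leaving out that of 18 September gave −0.1985. PGD, the second dehydrogenase of the pentose phosphate pathway, was the most abundant of them per length, at 124 CPM per kilobase in mimic libraries, against 128 in control libraries. It had 284.5, 199.6 and 242 CPM in mimic libraries, against 261, 226 and 264 CPM in control libraries. Its libraries interleaved, and the log2 fold change was −0.05 (95% CI −0.39 to 0.30). IDH1, the cytosolic isocitrate dehydrogenase, had −0.13, and its mitochondrial counterpart IDH2 had −0.10. GSR, glutathione reductase, had 74.0, 63.2 and 75.7 CPM in mimic libraries, against 83.5, 67.3 and 78.0 CPM in control libraries (log2 fold change −0.10, 95% CI −0.41 to 0.20).

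TXNDC12, a thioredoxin-like protein of the endoplasmic reticulum, had the lowest value of that step. It had 93.6, 91.5 and 98.5 CPM in mimic libraries, against 123, 92.7 and 114 CPM in control libraries (log2 fold change −0.22, 95% CI −0.53 to 0.092; edgeR adjusted p = 0.999). Libraries of 5 September differed little and those of the other dates more. Its model overlaps KTI12 on the same strand over 1714 bases and BTF3L4 on the other over 47 bases.

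Ratios below 0 came mainly on 22 August and 18 September. Within dates the log2 ratio of the mimic library over its control was below 0 for 25, 13 and 26 of the 30 members in date order, beside 48%, 49.9% and 52.5% of all genes. Its median was −0.30, 0.0084 and −0.16. Markers of other cell types also differed by date. Intestinal markers summed to 0.483 CPM in the mimic library, against 23.6 CPM in the control library, on 22 August, to 6.45 against 1.18 CPM on 5 September and to 15.9 against 17.5 CPM on 18 September. Plasma cell markers summed to 0 CPM in the mimic library, against 24.7 CPM in the control library, on 22 August, to 8.88 against 0 CPM on 5 September and to 10.2 against 24.2 CPM on 18 September. The part of this RNA in the date pattern was not tested. Transferases turned the most, with 9, 1 and 9 of 9 below 0 and medians of −0.38, 0.14 and −0.24. The NADPH step had medians of −0.17, −0.089 and −0.093 and the peroxidases −0.31, −0.063 and −0.18. Each date holds 1 library per mimic, so whether the dates differed in this ratio could not be tested.

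Members that kept their direction on all dates were mostly lower. CHAC1, SLC3A2, GPX8, GCLM, GSS, GPX1, GSTP1, GSR and TXNDC12 were lower on each date, 9 of 30 beside 14.4% of all genes, and GGT7 was higher on each, 1 of 30 beside 15.6%. Some of those ratios were near 0, such as −0.019 for TXNDC12 and −0.038 for GCLM on 5 September.

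**Figure D4:**
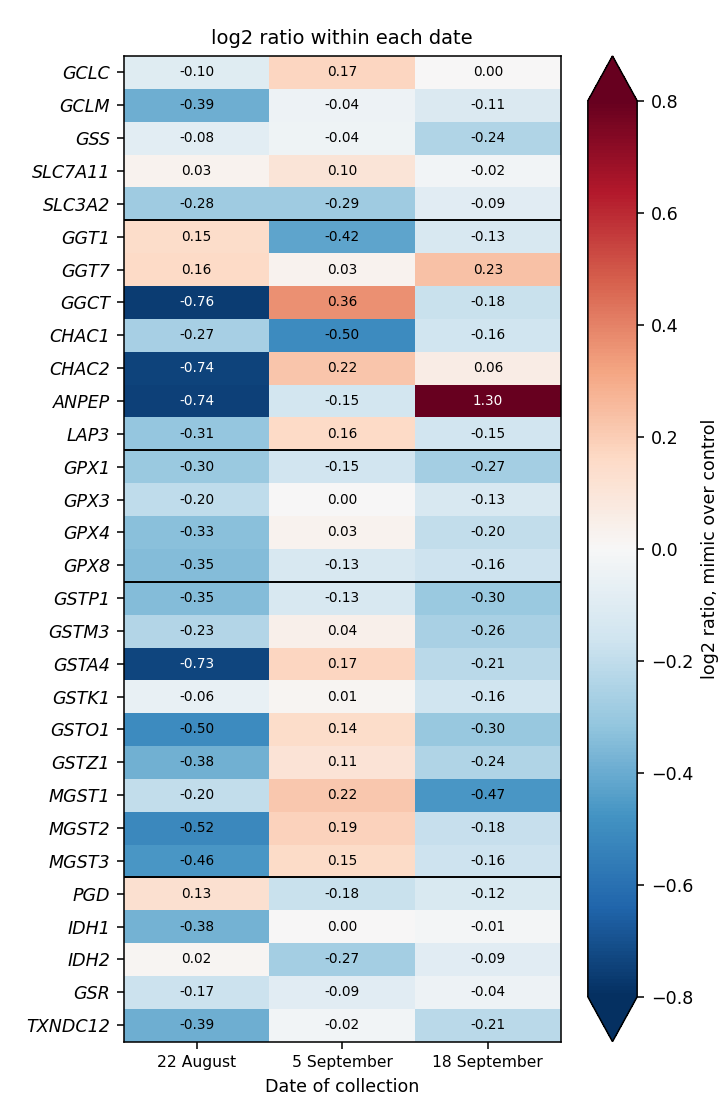
Log2 ratio of the mimic library over the control library (colour and printed value) for the 30 tested members (rows, steps divided by lines) on each date (columns). Blue prevails on 22 August and 18 September (25 and 26 of 30 below 0), 5 September is mixed (13 of 30), and the value of ANPEP on 18 September (1.30) exceeds the colour scale.

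High and low values fell in the same few libraries. Of the 30 members, 12 had their highest level in the control library of 22 August and 12 in that of 18 September. Their lowest level fell in the mimic library of 22 August for 11, in the mimic library of 5 September for 10 and in the control library of 5 September for 6. The median deviation of members from their own mean over libraries, in log2 units, was −0.15, −0.15 and 0.0014 for the mimic and 0.19, −0.13 and 0.14 for the control, in date order, while over all genes it was 0.0022 to 0.015 in mimic libraries, against 0.0031 to 0.0093 in control libraries. The control libraries of 22 August and 18 September, where 24 of the 30 members were highest, were also the highest in intestinal markers (23.6 and 17.5 CPM) and in plasma cell markers (24.7 and 24.2 CPM). The mimic library of 22 August and the control library of 5 September, low in members, had the lowest sums of intestinal markers (0.483 and 1.18 CPM) and plasma cell markers at 0. The mimic library of 5 September, as low in members, had 6.45 CPM of intestinal and 8.88 CPM of plasma cell markers. That of 18 September had 15.9 and 10.2 CPM, with 1 member highest there and 1 lowest. Single intestinal markers did not all follow the sums. FABP1, PIGR, CDH17 and LGALS4 were highest in the control library of 22 August and PHGR1 in that of 18 September. VIL1, KRT20, FABP2, APOA4, APOA1 and OLFM4 were highest in the mimic library of 18 September. The part of this RNA was not tested. Summed members took 2047, 1953 and 2128 CPM in mimic libraries, against 2433, 2085 and 2364 CPM in control libraries.

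Dates were also set against each other in a fit that kept the mimic as a term. By edgeR 0 of the 30 members differed between dates at an adjusted p under 0.05, beside 0.308% of all genes (DESeq2 0, beside 1.02%). At an unadjusted p under 0.05 there were 4 of 30, a share near the 13.2% of all genes. Those were MGST1, SLC7A11, IDH2 and GPX1, with adjusted p-values of 0.272, 0.300, 0.325 and 0.362. MGST1 was higher on 18 September than on the mean of the other dates by a log2 value of 1.006, and SLC7A11 was higher on 5 September by 0.45. IDH2, with 53.4, 37.2 and 57.7 CPM in mimic libraries, against 52.8, 44.9 and 61.6 CPM in control libraries, differed on 5 September by −0.46 in log2 units.

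The log2 ratio of mimic over control varied with gene length in these libraries, and members are short. Their median gene length in the table was 2396 bases, beside 3148 for all genes tested. On 22 August the median log2 ratio of all genes was −0.25 for genes up to 1500 bases long and 0.20 for those over 4000 bases, and on 5 September it was 0.10 and −0.0095. Members shared the drift in the shorter bands, with −0.50 on 22 August and 0.14 on 5 September for the 5 up to 1500 bases, but the 4 over 4000 bases had −0.31 on 22 August. With the trend with length removed from each library, a setting chosen after seeing the data, the median of members was −0.13 and that of all genes −0.023. In that setting 26 of 30 members lay below 0, beside 55.2% of all genes, and the part of length in the members' values was not tested further.

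**Figure D5:**
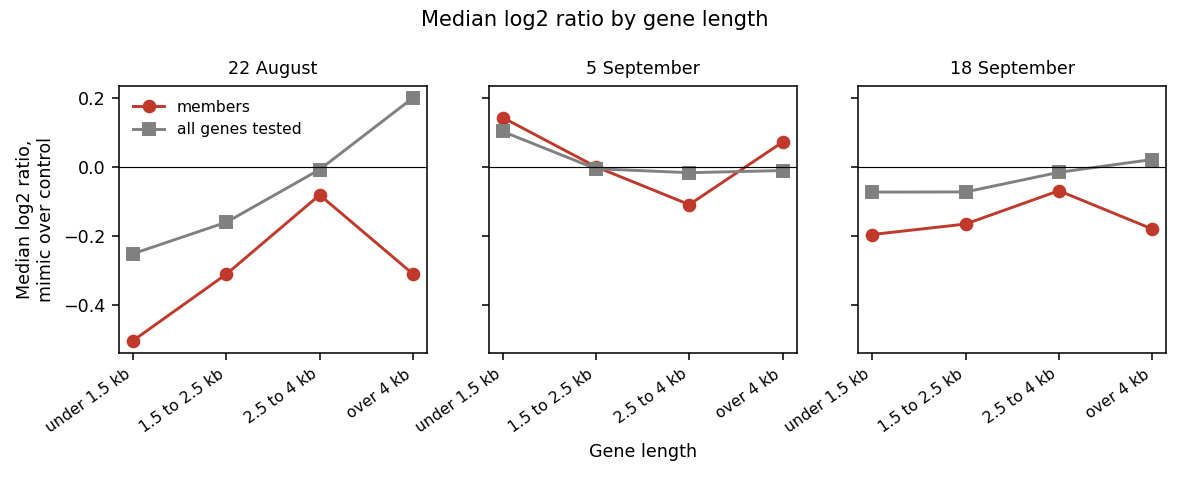
Median log2 ratio of mimic over control (y axis) by gene length (x axis) on each date, for the tested members (red circles; 5, 13, 8 and 4 genes) and all genes tested (grey squares). The grey line climbs from −0.25 to 0.20 on 22 August, and the members lie below it in every band on 22 August and 18 September but cross it on 5 September.

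Promoters were read for elements known to steer this pathway. NRF2 with small MAF proteins binds the antioxidant response element, searched as TGACNNNGC, and ATF4 with C/EBP proteins binds the composite element searched as TGATGNAA, where N is any base and both strands were read. Windows ran from 250 bases before to 50 after the RefSeq start (GRCh38.p14), and 30 of the 37 members had one. GSS, SLC7A11, GGT5, GGCT, OPLAH, MGST2 and GSR had none in the table used. The antioxidant element was present in 8 of these 30 (GCLM, SLC3A2, GPX2, GSTP1, GSTM1, GSTA4, GSTO1 and PGD). It was present in 13.6% of 27305 promoters and 14.8% of those of genes tested, and GPX2 and GSTM1 were not tested. The composite element was present in 3 (CHAC1, SLC3A2 and GPX8), beside 3.67% of all promoters and 1.63% of those of genes tested.

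Matches of the composite element are shown because its 3 carriers were among the 4 members whose mimic libraries all lay below the controls. That choice used these same values, so it carries no test, and a link of the element to the levels was not tested. Each line is a window of 30 bases on the strand of the gene, and capitals mark the match, which reads TGATGNAA on the opposite strand.
CHAC1, chr15:40953251-40953280 (+): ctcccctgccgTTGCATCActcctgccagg
SLC3A2, chr11:62881719-62881748 (+): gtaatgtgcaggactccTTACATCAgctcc
GPX8, chr5:55159971-55160000 (+): aaaaattataaTTACATCAcaaatactttg
The match begins 209 bases before the start of CHAC1 and 189 before that of GPX8, and 38 bases into the transcript of SLC3A2. Over all 172 tested genes with this element the median log2 fold change was 0.0051, 49.4% lay below 0, and 5.81% had all mimic libraries below all controls, beside 3.84% of all genes tested.

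Matches of the antioxidant element are shown for GCLM, SLC3A2 and GSTP1, carriers picked because their mimic library was lower on each date. The other tested carriers had a log2 ratio above 0 on 1 date, GSTA4 (0.17) and GSTO1 (0.14) on 5 September and PGD (0.13) on 22 August. CHAC1, GPX8, GPX1 and TXNDC12 were also lower on each date, with a window but no match. Capitals mark the match, which lies on the opposite strand in GCLM and on the gene's strand in the others.
GCLM, chr1:93909445-93909474 (-): tacgatttctGCTTAGTCAttgtcttccag
SLC3A2, chr11:62881652-62881681 (+): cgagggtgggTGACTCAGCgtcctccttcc
GSTP1, chr11:67583736-67583765 (+): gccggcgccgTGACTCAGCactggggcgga
The matches begin 34, 37 and 66 bases before the start. The 6 tested carriers had a median log2 fold change of −0.23, and the 19 tested members with a window but no match had −0.13. Over all 1564 tested genes with the element it was −0.0096, with 52.1% below 0, and a link of the element to the levels was not tested.

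Neighbouring pathways gave no call either. In the thioredoxin and glutaredoxin system 12 of 15 tested genes were below 0, with a median log2 fold change of −0.25 and 0 called either way. GLRX5, a mitochondrial glutaredoxin of iron-sulfur cluster assembly, had −0.36 (edgeR unadjusted p = 0.0331), and TXNRD2, the mitochondrial thioredoxin reductase, had −0.29 (edgeR unadjusted p = 0.0523). By date the medians of that system were −0.46, 0.029 and −0.17. NRF2 (NFE2L2) and its other targets had 10 of 11 below 0, a median of −0.14 and 0 calls, with AKR1B1, aldose reductase, at −0.27 and NFE2L2 itself at −0.20. Cysteine supply had 4 of 6 below 0 and a median of −0.07. There CBS, cystathionine beta-synthase, had −0.34 and the same direction on each date at −0.28, −0.37 and −0.37 (edgeR unadjusted p = 0.0289, adjusted p = 0.999), and AHCY, which splits S-adenosylhomocysteine, had −0.15.

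Other sources of NADPH lay on both sides of 0. Of 14 tested genes 8 were below 0 and 6 above, with a median of −0.05 and 0 calls. ALDH1L2 had 0.84 (SE 0.27; edgeR unadjusted p = 0.00813, adjusted p = 0.999) and its cytosolic relative ALDH1L1 had 0.43 (SE 0.28). Both were scarce. ALDH1L2 had 66, 72 and 42 counts in mimic libraries, against 38, 40 and 23 in control libraries, in date order. ALDH1L1 had 56, 41 and 35 counts in mimic libraries, against 29, 39 and 30 in control libraries. Their sign was opposite to that of most glutathione members, with 0 genes called in either list. ME2, MTHFD1, MTHFD1L and NADK2 were also above 0. ALDH1L2 and ALDH1L1 were higher in every mimic library than in any control library, 2 of 14 beside 4.22% of all genes. For ALDH1L1 the nearest libraries almost met, at 1.445 CPM for the mimic, against 1.424 CPM for the control. NNT was lower in every mimic library than in any control library, 1 of 14 beside 3.84%. Glutathione transport and glyoxalase genes had 5 of 7 below 0 and a median of −0.15, with the glyoxalase HAGH at −0.21 and the mitochondrial glutathione carrier SLC25A39 at −0.15. The related carrier SLC25A40 had 0.12 and the export pump ABCC4 had 0.07. Genes of selenoprotein synthesis, which the selenium-dependent peroxidases need, had 2 of 5 below 0 and a median of 0.05, with 0 calls in both lists. SEPHS2 had −0.21, EEFSEC −0.24 and PSTK 0.05, while SECISBP2 had 0.19 and SEPSECS 0.20. SECISBP2 and SEPSECS were higher in every mimic library than in any control library, 2 of 5 beside 4.22% of all genes. EEFSEC was lower in every mimic library than in any control library, 1 of 5 beside 3.84%. SECISBP2, SEPSECS, PSTK, SLC25A40 and ABCC4 were named after their values were seen.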

How the data were processed

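Libraries were prepared with the NEBNext Ultra II RNA kit, per the labels' protocols. STAR 2.5, HTSeq 0.6.1, DESeq2 and the build hg19 are named, without roles, in the submitters' processing notes. The deposited values are raw counts per gene, and strand setting and annotation release are not given in the sources used here. Gene length and coordinates are other columns deposited by the authors. Each sample column matched a label by name, and 0 were left over.

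Members, steps and lists were chosen with earlier results of these data known. Counts were fitted with edgeR 4.0.16 in R 4.3.3 (TMM, filterByExpr with min.count 10 and min.total.count 15, quasi-likelihood F test, no block) and adjusted by Benjamini-Hochberg over all 16233 genes tested, at a threshold of 0.05. Levels are TMM-normalized CPM, and log2 ratios within dates used a prior count of 2. SE is the absolute log2 fold change divided by √F. Labels give libraries a shared date, so dates pair them. Deviations of same-date libraries from group means correlated at 0.0466, 0.154 and 0.513. limma 3.58.1 and DESeq2 1.42.0 served for alternatives. Code was tested on simulated data. No libraries were duplicates: the chi-square per gene between libraries of a group was at least 23.2. Floors for 0 counts are 3 counts. Values in every library are given for the 12 members with the smallest unadjusted p, the most abundant per length of each step and those not tested. Others were added after values were seen. Python 3.11.15, pandas 2.3.3 and matplotlib 3.10.9 made tables and figures.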

Additional observations from a re-analysis of the deposited data

How the results depend on the processing

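The edgeR counts of 0 genes higher and 0 lower were unmoved by RLE size factors, limma-voom, the replicate block in edgeR, AGO2 and mitochondrial genes left out, the length trend removed, and any library or date left out. No filter on low counts gave 6 higher and 14 lower, DESeq2 gave 2 and 3, and DESeq2 with the replicate block gave 4 and 7. In every case 0 of the 30 tested members were among them. The cause was not tested. The edgeR fit without a block had 488 genes at an unadjusted p under 0.05 and the block 933. Tested members at an unadjusted p under 0.05 numbered 1 in the edgeR fit, and 0 with no filter and with the length trend removed. They also numbered 0 in 5 of the fits with libraries left out (the mimic library of 22 August, that of 5 September, the control library of 18 September, both of 22 August, both of 18 September). They numbered 2 (GSTA4 and GSTO1) without both libraries of 5 September, beside 5.148% of all genes. Without the control library of 5 September they numbered 5 (GPX1, GSTP1, GSTA4, GSTO1 and TXNDC12), beside 7.563% of all genes. Members differing between dates were 0 by edgeR and by DESeq2.

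With libraries or dates left out, members below 0 ranged from 24 to 27 of 30 and their median from −0.2447 to −0.0815. Medians ranged from −0.1963 to −0.0425 for synthesis, −0.2272 to 0.0669 for breakdown, −0.2602 to −0.1179 for peroxidases, −0.3544 to −0.0564 for transferases and −0.1985 to −0.0267 for NADPH supply. Direction was kept in every one of 17 settings by 18 members. It turned when libraries were left out for GCLC (−0.0530 to 0.0898), SLC7A11 (−0.1461 to 0.1892), GGT1 (−0.2687 to 0.0062), GGCT (−0.4335 to 0.0669), CHAC2 (−0.3087 to 0.1439), ANPEP (−0.525 to 0.7649), LAP3 (−0.2908 to 0.0282), GPX3 (−0.2021 to 0.0268), GSTK1 (−0.189 to 0.0109), MGST1 (−0.5052 to 0.3091), PGD (−0.1781 to 0.0745) and IDH2 (−0.2276 to 0.0668). With the length trend removed, SLC7A11 was −0.0925 and PGD 0.0041. Low counts limited what could be said of the 7 untested members and of ANPEP.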
